A study of Mus musculus with 21 samples.

Results

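The 1330 sites described here are the regions where Hnf4a was called in hepatocyte-like (iHep) cells made with Foxa2 and in neither of the iHep lines made with Foxa1 or Foxa3. They are called Foxa2-line-only sites. The 3 iHep Hnf4a peak lists were pooled, peaks that overlapped by 1 bp or more were merged into 4813 regions, and a region was kept if only the Foxa2 line had a peak in it. The sites were thus chosen by the presence of iHep Hnf4a peaks in the 3 lists, and their Hnf4a scores, widths and clustering are given as a description. The sites are 27.6% of those regions and 53.5% of the 2485 Hnf4a peaks of the Foxa2 line, and each is a single peak. The other 1155 peaks of that list fell into 1153 merged regions shared with the Foxa1 line, the Foxa3 line or both.

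Hnf4a is a nuclear receptor that binds DNA as a homodimer and activates many hepatocyte genes. Foxa1, Foxa2 and Foxa3 are forkhead factors with closely related DNA-binding domains. They are known for binding sites in closed chromatin, and in liver many enhancers are occupied by both a Foxa protein and Hnf4a. Expression of Hnf4a together with any 1 of the 3 Foxa proteins is the route by which these fibroblasts were turned into iHep cells.

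Binding was mapped by chromatin immunoprecipitation and sequencing (ChIP-seq), in which sonicated DNA bound by a protein is recovered with an antibody. All groups started from C57BL/6 embryonic fibroblasts of the mouse (13.5 days post coitum) infected with retroviruses for Hnf4a and either Foxa2, Foxa1 or Foxa3, so Hnf4a was introduced in every group. Each line was sampled as iHep cells and 48 hours after infection, with an Hnf4a library and a library of the line's own Foxa protein at both stages, which gives 12 peak lists. The labels do not say whether an iHep line is 1 clone, nor which promoter drives the factors, and the peak lists hold no expression values with which the cell type could be checked against its markers. In the iHep Foxa2 line the Hnf4a title carries the code R242 and the Foxa2 title R215, whereas both titles of the Foxa1 line carry R225 and both of the Foxa3 line R170. The meaning of these codes is not given.

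There was 1 library per group, so no replicate spread, no p-value and no test of any difference could be had. Shares are given with a 95% Wilson interval, which reflects counting error alone and treats neighbouring peaks as if they were independent. The files hold no read counts, so the depth of the libraries is unknown. The iHep Hnf4a lists held 2485 peaks in the Foxa2 line, 1580 in the Foxa1 line and 2506 in the Foxa3 line. A site called in a single line is a site absent from the other lists, and a peak list does not show signal below the authors' threshold. Positions are on mm9 with the first base counted as 1.

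The Foxa2-line-only sites were mostly weak, narrow peaks of their list. Each peak carries a score from the authors whose formula is not given, used here only to rank peaks within a list. The score of the sites had a median of 11.0, with a lowest value of 5.56, quartiles of 8.89 and 14.1 and a highest value of 94.7. The other peaks of the Foxa2 line had a median of 16.6, with a lowest value of 6.04, quartiles of 12.1 and 24.9 and a highest value of 115. In the lowest scoring 25% of the list 495 of 622 peaks (79.6%, 76.2% to 82.6%) were Foxa2-line-only, and in the highest scoring 25% 119 of 621 (19.2%, 16.3% to 22.4%). Among the 10 best peaks of the list 3 were Foxa2-line-only, among the best 50 there were 6 and among the best 100 there were 9.

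**Figure D1:**
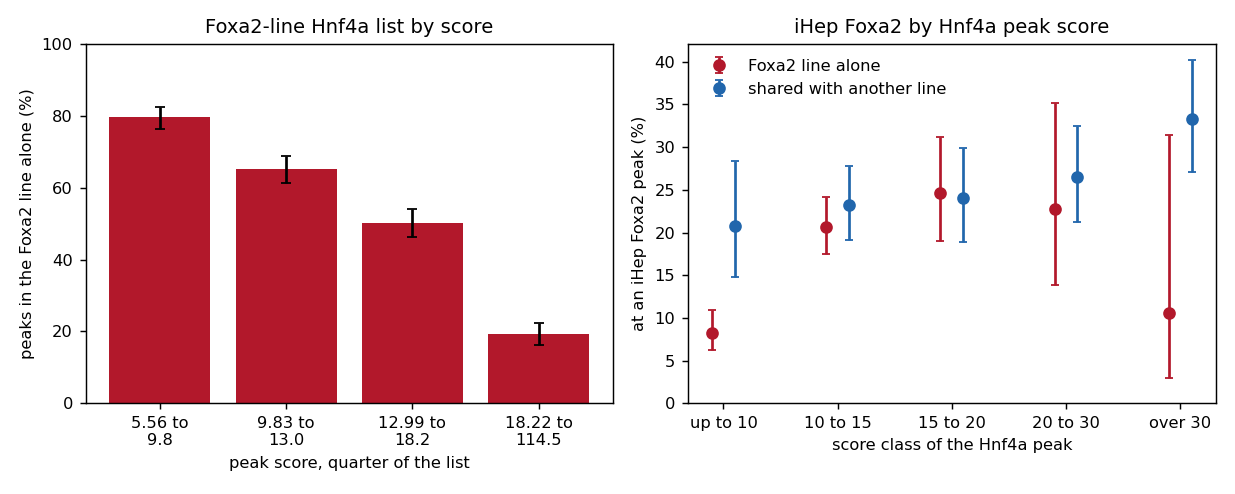
Left, percent of the iHep Hnf4a peaks of the Foxa2 line that were called in that line alone, by score in 4 equal parts of the list. Right, percent of peaks that overlapped an iHep Foxa2 peak by score class, for peaks of the Foxa2 line alone (red) and shared peaks (blue), with 95% Wilson intervals; the share of Foxa2-line-only peaks falls to 19.2% at the highest scores, and the groups on the right lie apart at scores up to 10.

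The width of the sites had a median of 326 bp, with quartiles of 283 and 396 bp, against 415 bp, with quartiles of 343 and 505 bp, for the other peaks of the list. No peak of this list was narrower than 272 bp. At exactly that width stood 260 of the 1330 sites (19.5%, 17.5% to 21.8%) and 43 of the 1155 others (3.72%, 2.78% to 4.98%). Over 500 bp wide were 108 sites and 304 others, and over 1000 bp 6 sites and 15 others. Among peaks of up to 500 bp the median score was 10.9 for 1222 sites and 14.7 for 851 others, and among wider peaks it was 15.6 for 108 sites and 27.4 for 304 others. The sites scored lower in both width classes.

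Only 2 of the sites were wider than 2 kb. They lay side by side on chromosome 9, at 2999897 to 3005364 (5468 bp, score 73.4) and at 3005598 to 3008917 (3320 bp, score 63.7). The peak of the list that follows them there is 29305 bp wide and did not qualify, since the Foxa1 line has a peak in it. All 3 lie in a block, as stretches are called here where each 48-hour Hnf4a list has 5 or more peaks spaced by at most 2 kb, with 10 kb added on each side. Of the next widest, chromosome 2 at 98506245 to 98507617 (1373 bp, score 89.0) lay in another such block, and chromosome 12 at 60137758 to 60139074 (1317 bp, score 9.06) and chromosome 13 at 72082673 to 72083971 (1299 bp, score 17.2) overlapped no peak of the 9 Foxa and 48-hour Hnf4a lists.

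The 5 sites with the highest score were 4 peaks in these blocks and 1 outside them. The best, chromosome 2 at 98502260 to 98503258 (score 94.7), ranked 3 in the whole list, and its neighbour at 98506245 (score 89.0) ranked 5. The wide pair on chromosome 9 ranked 10 and 17. All 4 held peaks of the 3 Foxa lists and the 3 Hnf4a lists of 48 hours and of no iHep Foxa list. The remaining site, chromosome 13 at 21856200 to 21857058 (score 52.3), ranked 33. It held no peak of any of those 9 lists.

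Distances from the Foxa2-line-only sites to Hnf4a peaks of the other lines were measured without a reference set. The rule itself excludes overlapping peaks, so the distances do not show whether the sites lie unusually far from such peaks. The median distance to the nearest one was 335 kb in the Foxa1 line and 292 kb in the Foxa3 line, and 770 sites (57.9%) had none within 100 kb in either. At the edge of the rule 64 sites lay within 500 bp of such a peak, 57 of them near a Foxa3-line peak and 9 near a Foxa1-line peak. The closest, chromosome 13 at 52945444 to 52945718 (score 9.51), missed by 1 bp, and chromosome 18 at 5002610 to 5002881 (score 7.49) by 2 bp. Just outside the rule, chromosome 19 at 40550979 to 40551290 (score 10.1) was shared through 2 bp, and 35 peaks in all were shared through fewer than 50 bp.

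With sites up to 2 kb apart joined, 103 of the 1330 sites (7.74%) fell into 38 runs of at least 2 peaks, against 8.69% of the peaks of the whole Foxa2-line list. With gaps of up to 10 kb 151 sites (11.4%) fell into 49 runs, against 16.4% of the list. Sites were joined without the other peaks of the list. A part of a list has fewer neighbours than the whole, so these shares do not show whether the sites cluster less. A single run held far more sites than the others. On chromosome 8 at 126062055 to 126147978, over 85.9 kb, 39 sites followed each other with a median spacing of 1748 bp between starts. The Foxa2-line list held 41 peaks there, with gaps of 155 to 6195 bp. In the same interval the Foxa1 line had 3 Hnf4a peaks and the Foxa3 line 1, and each of the 6 Foxa lists and the 3 48-hour Hnf4a lists had 0. The 39 sites were ordinary in strength, with scores of 5.80 to 19.2, a median of 10.1 and ranks from 559 to 2477 of the list. Their median width was 419 bp, against 326 bp for all sites. Within 100 kb on each side the Foxa2-line list held 1 further Hnf4a peak. By the same gap the longest run was 41 peaks in the whole Foxa2-line list, 12 in the Foxa1-line list and 28 in the Foxa3-line list. In runs of at least 2 peaks lay 11.7% of the Foxa1-line list and 45.8% of the Foxa3-line list.

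**Figure D2:**
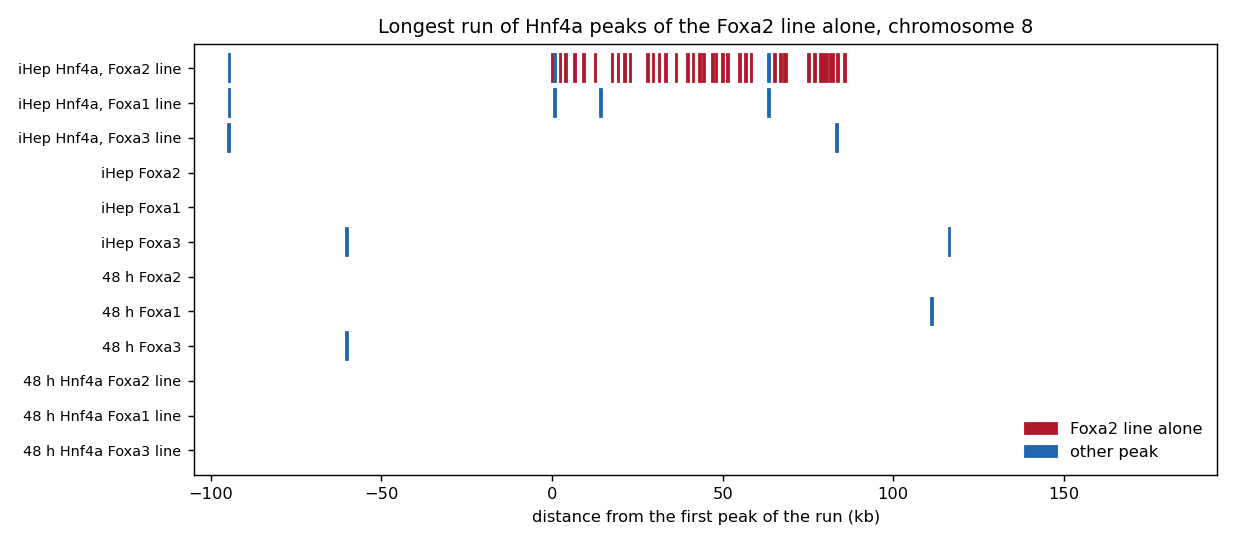
Peaks of the 12 lists (rows) around the longest run of Foxa2-line-only Hnf4a sites on chromosome 8, drawn to scale by distance in kb from the first peak of the run; peaks under 0.5 kb are drawn 0.5 kb wide. The 39 red peaks in the top row span 85.9 kb, a stretch in which the Foxa1 line has 3 Hnf4a peaks, the Foxa3 line 1 and the 6 Foxa lists 0.

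The next runs were far shorter. On chromosome X at 92149041 to 92161487, 6 sites with scores of 7.16 to 11.3 stood within 12.4 kb, where neither other line had an Hnf4a peak, the iHep Foxa1 list had 1 peak and the 48-hour Hnf4a list of the Foxa2 line 1. On chromosome 4 at 88433934 to 88451839, 5 sites lay within 17.9 kb and all 5 overlapped Foxa3 peaks of both stages, while the Foxa1 and Foxa2 lists had 0 peaks there. The chromosome 2 block at 98502260 to 98507617 held 4 sites with a median score of 53.7, the highest among these runs.

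The sites were spread over all autosomes and the X chromosome. Chromosome 8 held the most, with 121 (9.10%, 7.67% to 10.8%), against 85 of the other peaks of the list (7.36%, 5.99% to 9.01%). Without the run of 39 it held 82 of 1291 sites (6.35%, 5.15% to 7.82%). Chromosome X held 41 sites (3.08%, 2.28% to 4.16%) and 14 others (1.21%, 0.723% to 2.02%). Counted the other way, 41 of the 55 Foxa2-line peaks on X were Foxa2-line-only (74.5%, 61.7% to 84.2%), and 35 of 49 (71.4%, 57.6% to 82.2%) without the run of 6. On the autosomes this share ran from 43.2% on chromosome 11 to 60.3% on chromosome 13.

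The X-linked sites had low scores, with a lowest value of 6.43, a median of 8.98 and a highest value of 22.4, while the other 14 peaks on X had a median of 24.5. At scores up to 10, 25 of 26 X-linked peaks and 494 of 628 other peaks (78.7%) were Foxa2-line-only. The share of a list on X also differed between the lists themselves. It was 2.21% in the iHep Hnf4a list of the Foxa2 line, 1.27% in that of the Foxa1 line and 0.239% (6 peaks) in that of the Foxa3 line. In the iHep Foxa2 list it was 2.29% (2.02% to 2.60%). The part of list size and score in these shares was not tested.

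**Figure D3:**
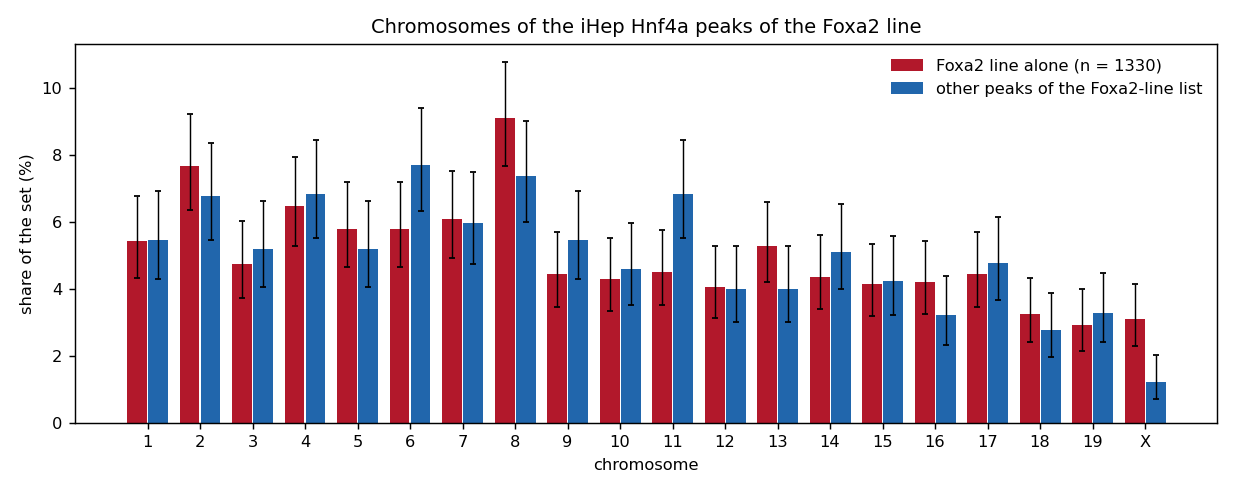
Percent of the Foxa2-line-only Hnf4a sites (red) and of the other Hnf4a peaks of the Foxa2 line (blue) on each chromosome, with 95% Wilson intervals. Chromosome 8, with 121 sites, includes the run of 39, and on X the intervals of the sites (2.28% to 4.16%) and of the others (0.723% to 2.02%) are apart.

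The next comparison asks whether the Foxa2-line-only sites had Foxa peaks in iHep cells. Only the Foxa2 list comes from the line in which the sites were called. In iHep cells 217 of the 1330 sites (16.3%, 14.4% to 18.4%) overlapped a Foxa2 peak, against 14.8% of all 4813 merged Hnf4a regions and 25.6% (23.2% to 28.2%) of the 1153 Foxa2-line regions shared with another line. The Foxa2-line-only share was thus close to that of all regions, and the interval lay below that of the shared regions. All regions include those of the Foxa3 line alone, of which 5.09% overlapped an iHep Foxa2 peak. Of the 510 regions of the Foxa1 line alone, 18.6% (15.5% to 22.2%) overlapped an iHep Foxa2 peak and 14.5% (11.7% to 17.8%) an iHep Foxa1 peak. The sites were thus no more often at iHep Foxa2 than those regions. An iHep Foxa1 peak, which comes from the Foxa1 line, was found at 110 sites (8.27%, 6.91% to 9.87%), against 8.25% of all regions and 15.4% (13.4% to 17.5%) of the shared regions. An iHep Foxa3 peak was found at 70 sites (5.26%, 4.19% to 6.60%), against 22.4% of all regions, a value to which the 1728 regions of the Foxa3 line alone contribute with 46.8%. Among the shared regions, which include regions of the Foxa3 line, the share at iHep Foxa3 was 12.1% (10.3% to 14.1%). Of the 582 regions shared by the Foxa1 and Foxa2 lines without the Foxa3 line, 3.78% (2.51% to 5.66%) overlapped an iHep Foxa3 peak. A low share at iHep Foxa3 was thus not particular to the sites. These shares moved with the length of the lists. With every list that is longer cut to its 1580 highest scoring peaks, the rule gave 671 sites. Of these, 41 (6.11%) overlapped an iHep Foxa2 peak, 50 (7.45%) an iHep Foxa1 peak and 10 (1.49%) an iHep Foxa3 peak. Foxa1 then stood above Foxa2 among these sites. Shares over all regions were not obtained with cut lists, so whether other regions show the same is unknown. With the upper 50% of each list the rule gave 658 sites, and the share at iHep Foxa3 was 2.58%. Cut lists can turn shared peaks into sites, since the lists of the other lines are cut too. For the 1330 sites, the iHep Foxa3 share with peak centres within 200 bp was 3.31%.

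At 48 hours fewer sites held Foxa2 than in iHep cells, and as many held Foxa1, by lists of unlike length. The Foxa2 list held 10330 peaks in iHep cells and 6827 at 48 hours, and the Foxa1 list 3435 and 6781. Of the 1330 sites 76 overlapped a 48-hour Foxa2 peak (5.71%, 4.59% to 7.09%), against 5.15% of all regions and 8.93% (7.42% to 10.7%) of the shared regions. A 48-hour Foxa1 peak of the Foxa1 line was found at 110 sites, the same number as in iHep cells (8.27%, 6.91% to 9.87%), against 7.52% of all regions and 13.9% (12.0% to 16.0%) of the shared regions. The 48-hour Foxa3 list covered 49 sites (3.68%, 2.80% to 4.84%), against 11.6% of all regions and 7.11% (5.77% to 8.74%) of the shared regions. Of the 582 regions shared by the Foxa1 and Foxa2 lines without the Foxa3 line it covered 3.09% (1.97% to 4.84%). For Foxa3 the intervals of the iHep and 48-hour shares overlap. At equal list length 2.98% of the 671 sites overlapped a 48-hour Foxa2 peak, 4.62% a Foxa1 peak and 1.64% a Foxa3 peak. The iHep shares at that length were 6.11%, 7.45% and 1.49% in the same order, so for these sites Foxa1 was then also lower at 48 hours. No share over all regions was obtained at that length. The Foxa3 share was 1.67% with the upper 50% of each list and 2.11% with centres within 200 bp. Since a Foxa protein was mapped only in the line that received it, the protein, its antibody and the line cannot be told apart.

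**Figure D4:**
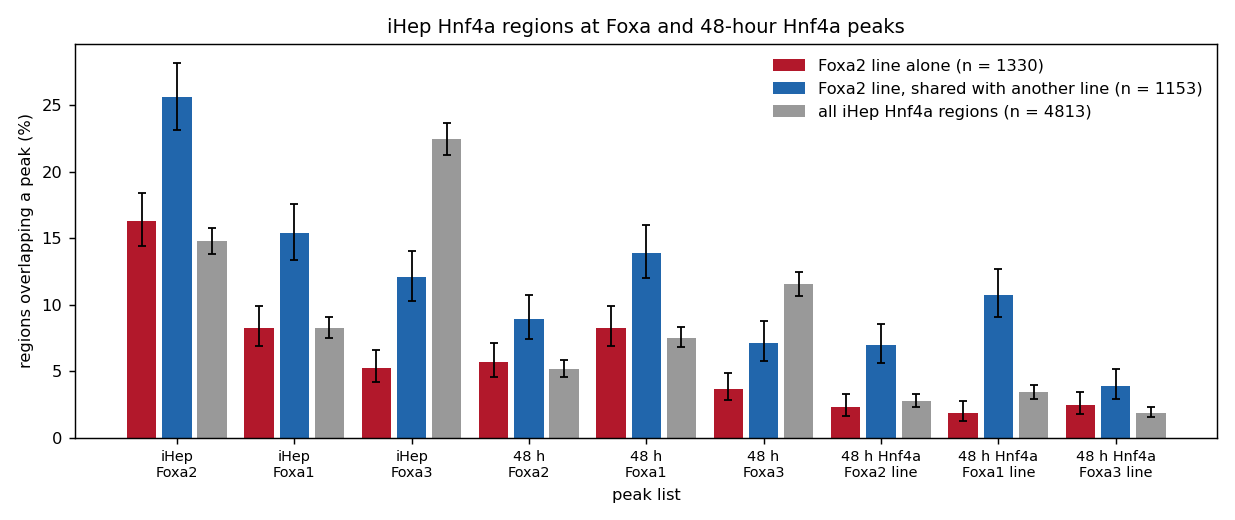
Percent of Foxa2-line-only Hnf4a sites (red), of Foxa2-line regions shared with another line (blue) and of all merged iHep Hnf4a regions (grey, which include the others) that overlap a peak of each Foxa or 48-hour Hnf4a list, with 95% Wilson intervals. Red stands below blue for all 9 lists, and close to grey for Foxa1 and Foxa2 at both stages.

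The share at iHep Foxa2 depended on the score of the site. At scores up to 10, an iHep Foxa2 peak was present at 43 of 519 sites (8.29%, 6.21% to 11.0%) and at 28 of 135 other peaks (20.7%, 14.8% to 28.3%), and the intervals were apart. From 10 to 15 the shares were 20.6% (17.4% to 24.2%) of 548 sites and 23.2% (19.2% to 27.8%) of 362 others, and from 15 to 20 they were 24.6% (19.0% to 31.2%) of 187 sites and 24.0% (18.9% to 29.9%) of 229 others. In both of these classes the intervals overlap widely. Over a score of 30 it was 2 of 19 sites (10.5%, 2.94% to 31.4%) and 33.3% (27.1% to 40.2%) of the others, with overlapping intervals, and 4 of these 19 sites were block peaks without iHep Foxa. For iHep Foxa3 the sites stayed low also at middle scores, with 2.67% (1.15% to 6.11%) of sites and 9.61% (6.43% to 14.1%) of others from 15 to 20. These others include peaks shared with the Foxa3 line. The median score was 12.6 for the 217 sites at iHep Foxa2 and 10.9 for the 1113 without it.

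Where a site overlapped an iHep Foxa2 peak, the overlap itself and the widths of both peaks limited the distance between their centres. The median distance between the centres of a site and of the iHep Foxa2 peak it overlapped was 71.5 bp, with quartiles of 29.5 and 124.5 bp, against 63.2 bp for the other peaks of the list. For the iHep Foxa3 peaks it was 139 bp, with quartiles of 71.5 and 256 bp.

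In iHep cells Foxa1 peaks fell mostly on sites with Foxa2, and Foxa3 peaks on other sites. Each iHep Foxa list comes from its own line, so peaks of several lists at a site do not show joint binding in the same cells. Over these lists 109 sites had a peak of Foxa2 alone, 104 of Foxa2 and Foxa1, 66 of Foxa3 alone and 4 of Foxa1 alone. Foxa2 and Foxa3 peaks were found at 2 sites, all 3 at 2 and none at 1043. An iHep Foxa1 peak at a site thus nearly always coincided with an iHep Foxa2 peak, at 106 of 110 sites. Of the 70 sites at iHep Foxa3, 66 had neither. This was not particular to the sites. Among the other peaks of the list, 160 of 176 at iHep Foxa1 were also at iHep Foxa2, and 118 of 130 at iHep Foxa3 had neither. At 48 hours, again over lists of separate lines, 55 sites had a peak of Foxa1 alone, 49 of Foxa2 and Foxa1, 19 of Foxa2 alone and 41 of Foxa3 alone.

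Across the stages, 55 sites held Foxa2 in iHep cells and at 48 hours, 162 in iHep cells alone and 21 at 48 hours alone. Of the 76 sites with a 48-hour Foxa2 peak 72.4% (61.4% to 81.2%) thus held Foxa2 in iHep cells, and among the 102 other peaks of the list with one 77.5% (68.4% to 84.5%) did. Of the 110 sites with a 48-hour Foxa1 peak 92 held iHep Foxa2 (83.6%, 75.6% to 89.4%) and 72 iHep Foxa1 (65.5%, 56.2% to 73.7%). Among the 158 other peaks of the list with a 48-hour Foxa1 peak, these shares were 87.3% (81.3% to 91.7%) and 70.3% (62.7% to 76.8%). For Foxa3, 36 of the 49 sites with a 48-hour peak also had an iHep Foxa3 peak (73.5%, 59.7% to 83.8%), against 59 of 75 other peaks (78.7%, 68.1% to 86.4%).

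Any Foxa peak at either stage was found at 320 sites (24.1%, 21.8% to 26.4%), against 39.9% of all regions and 41.5% (38.6% to 44.3%) of the shared regions. It was present at both stages at 139 sites, in iHep cells alone at 148 and at 48 hours alone at 33, which leaves 1010 sites without a Foxa peak. In iHep cells any Foxa peak was found at 287 sites (21.6%, 19.5% to 23.9%), against 37.1% of all regions. At 48 hours it was found at 172 sites (12.9%, 11.2% to 14.8%), against 20.4% of all regions. The regions of the Foxa1 line alone had a share of 33.1% (29.2% to 37.3%) and those of the Foxa3 line alone 53.1% (50.7% to 55.4%).

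The iHep Foxa2 peaks that lay under the sites were compared with the rest of the Foxa2 list, since Foxa2 peaks were not used to choose the sites. The 217 Foxa2 peaks under sites had a median Foxa2 score of 26.7 and the 294 under other Hnf4a peaks of the line 28.1, while the 9819 under no Hnf4a peak of the line had 20.2. In the highest scoring 25% of the Foxa2 list stood 40.6% (34.2% to 47.2%) of those under sites and 40.5% (35.0% to 46.2%) of those under the other Hnf4a peaks. An iHep Foxa1 peak overlapped 49.3% (42.7% to 55.9%) of the Foxa2 peaks under sites, 55.4% (49.7% to 61.0%) of those under other Hnf4a peaks and 27.0% (26.1% to 27.9%) of those under none. A 48-hour Foxa2 peak had been present at 26.3% (20.9% to 32.5%), 26.9% (22.1% to 32.2%) and 20.5% (19.7% to 21.3%) in the same order. The Foxa2 peaks under the sites thus lay near those under shared Hnf4a peaks in each of these measures, with overlapping intervals, and no test of a difference could be made.

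**Figure D5:**
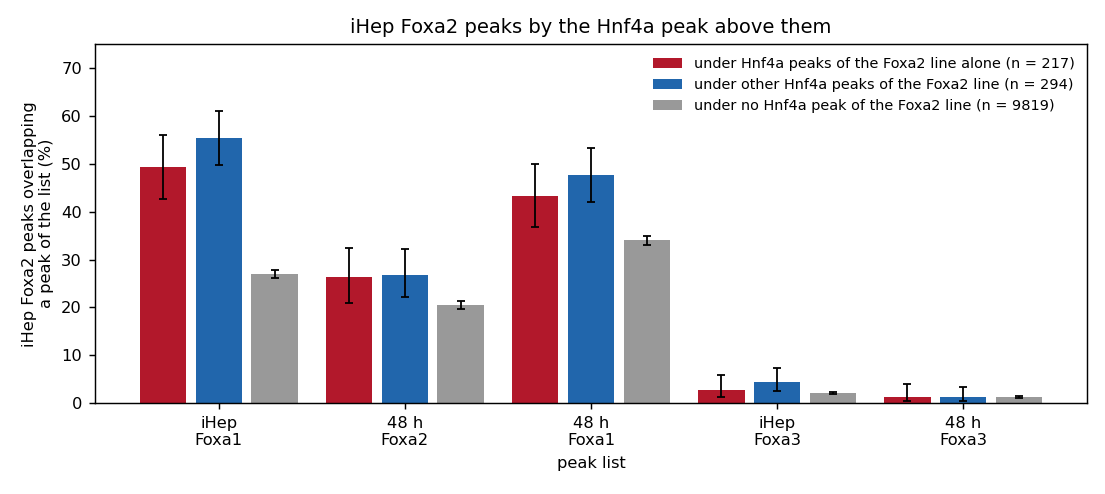
Percent of iHep Foxa2 peaks that overlap a peak of each other Foxa list, for Foxa2 peaks under Foxa2-line-only Hnf4a sites (red, 217), under other Hnf4a peaks of the Foxa2 line (blue, 294) and under none (grey, 9819), with 95% Wilson intervals. Red and blue intervals overlap in every list, and for iHep Foxa1 both stand above grey (27.0%).

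Among single sites with iHep Foxa2, the highest scores were found on chromosome 14 at 10439578 to 10440050 (score 41.5, with iHep Foxa2 and Foxa1 and 48-hour Foxa1), on chromosome 9 at 17479905 to 17480551 (score 33.3, iHep Foxa2 alone) and on chromosome 18 at 44045561 to 44045995 (score 26.8, Foxa1 and Foxa2 at both stages). The highest scoring site at iHep Foxa3 (score 48.9) was chromosome 18 at 7608767 to 7609220 and held Foxa3 at both stages and no other Foxa protein.

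The last comparison asks whether Hnf4a was already called at the sites 48 hours after infection. It rarely was. The 48-hour Hnf4a list of the Foxa2 line, with 453 peaks, covered 31 sites (2.33%, 1.65% to 3.29%), against 2.74% of all regions and 6.94% (5.61% to 8.55%) of the shared regions. The list of the Foxa1 line covered 25 sites (1.88%, 1.28% to 2.76%), against 3.41% of all regions and 10.8% (9.09% to 12.7%) of the shared regions. The list of the Foxa3 line covered 33 sites (2.48%, 1.77% to 3.46%), against 1.87% of all regions and 3.90% (2.93% to 5.18%) of the shared regions. The own line's early list thus covered no more sites than that of the Foxa3 line, which shares the title code R209 with it at 48 hours. Among the 671 sites found at equal list length, which can include peaks shared in the full lists, the shares were 3.73% for the Foxa2 line, 2.83% for the Foxa1 line and 3.87% for the Foxa3 line.

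Any 48-hour Hnf4a peak was found at 48 sites (3.61%, 2.73% to 4.75%), against 5.15% of all regions and 14.1% (12.2% to 16.3%) of the shared regions. The share was 2.35% (1.35% to 4.07%) for regions of the Foxa1 line alone and 1.16% (0.750% to 1.78%) for those of the Foxa3 line alone. Of these 48 sites, 15 had it in all 3, and 6 of these 15 were the block peaks on chromosomes 2 and 9. Of the 61 peaks of the 48-hour Foxa2-line list that lay under sites, 32 were in the blocks. Outside the blocks the 3 lists covered 25 (1.89%), 19 (1.44%) and 27 (2.04%) of 1324 sites, in the order of the Foxa2, Foxa1 and Foxa3 lines, and 75 (6.52%), 120 (10.4%) and 39 (3.39%) of 1150 other peaks. The sites with an early Hnf4a peak of the Foxa2 line had a median score of 17.0, against 10.9 for the 1299 without.

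Of the 48 sites with any 48-hour Hnf4a peak 35 had no Foxa peak at either stage, a share close to that over all sites (1010 of 1330). Of the 31 sites with a 48-hour Hnf4a peak of the Foxa2 line, 6 of them block peaks, 1 overlapped an iHep Foxa2 peak. Over all 1330 sites it was 217. The 1 site, on chromosome 8 at 43272479 to 43272885 (score 19.2), held Foxa1 and Foxa2 at both stages and 48-hour Hnf4a peaks of the Foxa2 and Foxa1 lines. Outside the blocks the highest score with early Hnf4a of the Foxa2 line was on chromosome 9 at 35112676 to 35113298 (score 32.1), with Hnf4a peaks of all 3 lines and Foxa2 at 48 hours and no iHep Foxa peak.

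Counted over the 6 Foxa and 3 early Hnf4a lists, 975 sites (73.3%, 70.9% to 75.6%) overlapped no other peak, against 57.3% of all regions and 51.9% (49.0% to 54.7%) of the shared regions. A peak of 1 list was found at 149 sites, of 2 lists at 102, of 3 at 62 and of 4 or more at the others, up to 6 lists.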

How the data were processed

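The authors deposited a peak list for each ChIP-seq sample, with chromosome, start, end, name and a score. MACS2 2.1.0, BWA 0.6.2, bedtools 2.16.2 and the build mm9 appear in the submitters' processing notes without roles. Whether the inputs entered the peak calling is not stated. The deposited score has no stated formula. Samples were grouped by title into stage, line and antibody; the tagged Foxa3 mutant and the inputs were not used here.

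Overlap meant at least 1 bp. Counts, medians and 95% Wilson intervals were computed with pandas 2.3.3 and NumPy 2.4.6 in Python 3.11.15, SciPy 1.17.1 and, for plots, matplotlib 3.10.9; the overlap code was tested on simulated lists. Score classes were set after seeing values. The sites and comparisons were chosen with earlier results of these data known. Named regions are the 5 highest scoring, the 5 widest, the 3 longest runs, the 3 highest scoring at each iHep Foxa list and at 48-hour Foxa2, the 5 highest scoring with early Hnf4a and the 5 in most lists; some are left out of the text. The gene and promoter tables at hand are on GRCm38 and the peaks on mm9, so no gene or sequence was assigned.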

Additional observations from a re-analysis of the deposited data

How the results depend on the processing

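No paired analysis was possible because each group has 1 library and no result comes from a test. With the upper 50% of each list by score 658 sites remained, and with lists cut to equal length (1580 peaks, by score) 671. Equal length moved 8 of the 9 shares out of their intervals: to 6.11% at iHep Foxa2, 1.49% at iHep Foxa3, 2.98% at 48-hour Foxa2, 4.62% at 48-hour Foxa1, 1.64% at 48-hour Foxa3, and 3.73%, 2.83% and 3.87% at 48-hour Hnf4a of the Foxa2, Foxa1 and Foxa3 lines. The ninth, iHep Foxa1, was 7.45% and thus above iHep Foxa2, where the full lists gave 8.27% and 16.3% in the same order. With the upper 50% the shares were 2.58% at iHep Foxa3, 4.26% at 48-hour Foxa2 and 1.67% at 48-hour Foxa3. The Foxa3 shares also moved with the overlap rule. At iHep Foxa3 they were 4.06% with 50% of the shorter peak, 3.31% with centres within 200 bp and 7.59% with gaps of up to 500 bp, and at 48-hour Foxa3 2.11% with centres within 200 bp and 5.11% with such gaps. The longest run had 9 sites with gaps of 2 kb and 39 with gaps of 10 kb or 50 kb. The median score of the sites minus that of the others was -5.66, and -11.8 over 500 bp of width. Chromosome 8 held 7.11% of the sites counted as runs and 6.35% without the run of 39. The cause of these moves was not tested, and with cut lists the set of sites itself changed. Shares over all regions were not obtained for cut lists. Autosomes alone, no peaks over 2 kb, no peaks with a neighbour within 2 kb and, added after seeing the data, leaving out the run of 39 or the early Hnf4a blocks moved none of the 9 shares. Unknown depth limits every count.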

Other observations

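Few sites had an iHep Foxa2 peak within 1 kb without overlapping it. An iHep Foxa2 peak lay within 10 kb of 374 of the 1330 Foxa2-line-only sites (28.1%) and of 459 of the 1155 other Hnf4a peaks of the line (39.7%), and the median distance to the nearest one was 46.8 kb and 22.2 kb. Within 1 kb there was one at 243 sites (18.3%) and at 313 other peaks (27.1%). The counts at both distances include the 217 sites and 294 other peaks that overlapped an iHep Foxa2 peak. The shares within 1 kb thus largely repeat the overlap shares. The median distance to the nearest iHep Foxa3 peak was 72.2 kb from the sites and 41.7 kb from the other peaks. No explanation was tested.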
